A study of Ovis aries with 24 samples.

Results

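In preterm lambs, the response of the liver to ventilation was compared with that of the periventricular white matter (PVWM), the deep brain tissue around the ventricles. For each gene the quantity examined was the tissue difference, that is the change from unventilated to surfactant-treated ventilated lambs in liver minus the same change in PVWM. It rests on 16 of the 24 RNA sequencing libraries of the study, 4 per group and tissue, and on 20010 genes that were tested. Surfactant lambs 007, 032, 049 and 051 were ventilated and received intratracheal Poractant alpha, a porcine lung surfactant, at 2.5 mL/kg and no budesonide. Lamb 007 was a male of 127 days of gestation and the other 3 were females of 126 days. Unventilated lambs received no treatment: 057 and 058 were males of 127 days, 059 (liver only) was a female of 128 days, 060 was 128 days old and labelled female for its PVWM but without a sex for its liver, and 061 (PVWM only) was 128 days old with no sex given. The groups therefore shared only the age of 127 days. The remaining 8 libraries came from ventilated lambs whose surfactant also held 0.25 mg/kg of the glucocorticoid budesonide, and entered the filter on low counts, the scaling and the estimate of the spread between animals, but not the contrast. Ventilation and surfactant were always given together, so their effects cannot be told apart, and the labels used here do not state how long ventilation lasted. Of the 9 lambs compared, 7 gave both tissues, and every library of a tissue came from a separate animal.

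Injurious ventilation of the immature lung releases cytokines into the circulation, and birth itself raises cortisol and demands a switch from placental to endogenous fuel supply. Hepatocytes answer interleukin-6 through STAT3 with acute phase proteins, and they carry much of the body's gluconeogenesis, sterol synthesis and bile acid production. The periventricular white matter of the preterm brain holds oligodendrocyte precursors, astrocytes, microglia, axons and vessels behind a barrier, and is a common site of injury in preterm infants. By its title the study is about systemic effects of injurious ventilation, and the tissue difference asks which parts of them the liver and the brain shared.

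Liver libraries held 16.4 to 23.2 M counts (M for 1000000) and PVWM libraries 14.9 to 16.4 M, so counting error is small for all but the rarest transcripts. Tissue labels fitted their markers: 17 hepatocyte markers summed to 301100.0 to 429030.0 CPM (counts per 1000000, after TMM scaling) in liver and to 83.7 to 199 CPM in PVWM, and 16 neuron markers to 8387 to 9851 CPM in PVWM and to 21.1 to 129 CPM in liver. A liver library and a PVWM library stood apart. On the first principal component of liver, which held 63.5% of the variance, surfactant lamb 007 lay at 9.45 against 67.9 to 113 for the other 3 surfactant lambs and -76.7 to -67.3 for unventilated lambs. In PVWM of surfactant lamb 051, 16 oligodendrocyte markers summed to 13861 CPM, against 1031 to 2721 CPM in the other surfactant lambs and 918 to 2401 CPM in unventilated lambs. In bulk tissue, fewer cells of a type and less RNA per cell cannot be told apart.

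The response to ventilation was far larger in liver than in PVWM, and most tissue differences were liver changes without a called change in PVWM. A tissue difference was called (adjusted p under 0.05, edgeR quasi-likelihood test with Benjamini-Hochberg adjustment over all genes) for 5170 genes, which is 25.8% of those tested. The change was more positive in liver, here called higher, for 2928 genes (14.6%) and more negative in liver, here called lower, for 2242 (11.2%). Genes called higher had a median log2 change of 1.34 in liver and -0.04 in PVWM, and genes called lower had -1.05 in liver and 0.05 in PVWM. The change within liver was called for 44.2% of all genes (24.1% rose and 20.1% fell) and that within PVWM for 0.515% (0.4% rose and 0.115% fell). Of the 5170 genes, 4942 (95.6%) had a called change in liver only, 23 in PVWM only, 17 in both tissues the same way, 9 in both in opposite ways, and 179 in neither. The absolute change was larger in PVWM for 176 of them (3.4%). Over the 14160 genes with at least 1 CPM in each tissue, 4550 (32.1%) were called, and the 2 changes correlated across genes with a Pearson r of 0.198 and a Spearman rho of 0.143. Genes are not independent replicates, and all of them share the same libraries. The median difference over all genes was 0.044 on the log2 scale. Which direction held more genes depended on the scaling. With TMM scaling within each tissue 2534 genes were called higher and 2686 lower, and the median difference was -0.036.

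How many genes were called depended on the treatment of age. With gestational age as a covariate with its own slope in each tissue, 664 genes were called and 643 of the 5170 (12.4%) kept their call, while 11 turned sign. Surfactant and unventilated lambs overlapped in age at 127 days only, so age and group cannot be fully told apart. Within groups age also went with sex. The only surfactant lamb of 127 days, 007, was the only male there, and the unventilated lambs labelled male were those of 127 days. The fall in calls can therefore not be assigned to age alone. Without liver of surfactant lamb 007 the calls rose to 6650. The PVWM calls were the most sensitive, with 103 in the joint fit and 376 when PVWM was fitted alone. Of the 5170 genes, 49 had a called change in PVWM in the joint fit and 174 with PVWM fitted alone. With each tissue fitted alone, 57 of the 5170 genes had called changes in opposite ways and 58 in the same way.

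**Figure D1:**
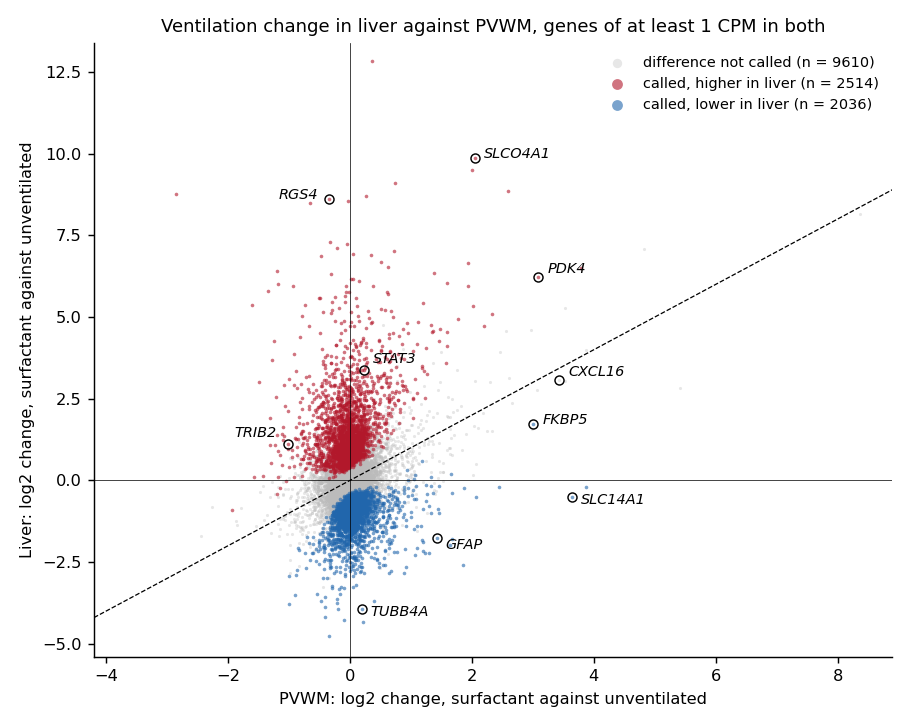
Change from unventilated to surfactant lambs in liver (vertical axis, log2) against PVWM (horizontal axis, log2) for the 14160 genes of at least 1 CPM in each tissue, 1 point per gene, red where the tissue difference was called higher in liver and blue where it was called lower; the dashed line marks equal changes. The cloud is tall and narrow: called genes lie above or below the horizontal line at 0 and close to the vertical one, and FKBP5, SLC14A1 and CXCL16 lie far to the right.

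Among genes with at least 1 CPM in each tissue, the 8 largest positive differences all belonged to genes with a mean of under 4 CPM in unventilated liver and a called rise there. The first 3 rest on groups with almost no counts. SCNN1G, the gamma subunit of the epithelial sodium channel, had no counts in unventilated liver and 1.40, 47.8, 5.76 and 153 CPM in surfactant lambs 007, 032, 049 and 051, the order of animals used for every surfactant group. That is at least 1080.1-fold higher on the means, with the empty group set to 3 counts. Its PVWM means were 2.16 and 2.78 CPM. ADRB3, the adrenergic receptor of fat tissue, had 5 counts in all in unventilated liver and 0.591, 23.03, 28.5 and 100.4 CPM in surfactant liver, while its PVWM mean was 2.08 CPM without and 0.278 CPM with ventilation. ECEL1, a neuronal endopeptidase, had no counts in unventilated liver and at most 4.76 CPM in surfactant liver. All 3 differences were called (adjusted p 0.00149, 1.07e-04 and 0.00352) but not with age in the model (0.158, 0.0523 and 0.108), nor that of ECEL1 with the animal as a block (0.0562).

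The next 5 rested on more counts. RGS4, a regulator that shortens G-protein signalling and is abundant in neurons, had liver CPM of 0.127, 0.309, 0.516 and 0.118 in unventilated lambs 057, 058, 059 and 060 and of 18.8, 139, 184 and 77.7 in surfactant lambs. In PVWM it had 39.8, 80.3, 54.1 and 43.7 CPM in unventilated lambs 057, 058, 060 and 061 and 24.1, 50.7, 49.2 and 47.2 CPM in surfactant lambs, an order also kept throughout. The liver groups lay far apart and the PVWM groups overlapped, with a log2 difference of 8.98 ± 0.88 (SE, as after every log2 value here; adjusted p 3.68e-07). ATP6V1C2, a subunit of the vacuolar proton pump, went from 0.254, 0.433, 0.664 and 0.355 to 49.7, 175, 129 and 351 CPM in liver. Its PVWM values were 2.87, 1.59, 3.62 and 1.59 CPM without and 2.31, 2.53, 2.84 and 3.87 CPM with ventilation, which overlapped, and the difference was 8.44 ± 0.70 (adjusted p 6.06e-08). SLCO4A1, an organic anion transporter that carries thyroid hormone, stood at 0.954, 1.18, 0.0738 and 0.473 CPM in unventilated and at 202, 518, 619 and 1264 CPM in surfactant livers. It was also higher in every ventilated PVWM library, at 8.67, 7.40, 7.51 and 6.90 against 1.53, 3.22, 1.83 and 0.747 CPM, a PVWM change of 2.05 ± 0.48 that was not called (adjusted p 0.0548). That PVWM rise was called under several alternatives, among them DESeq2 (0.00217), PVWM fitted alone (0.00294) and TMM within each tissue (0.0467). The difference of SLCO4A1 was 7.83 ± 0.76 (adjusted p 3.67e-07).

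SPP1 (osteopontin, a secreted matrix protein of macrophages and bile duct cells) rose from a mean of 3.36 ± 0.612 CPM to 1255 ± 1068 CPM in liver (SD, n = 4) and was 38.5 ± 10.3 and 37.5 ± 34.96 CPM in PVWM. Its difference was 8.58 ± 1.12 (adjusted p 1.28e-05), and all 4 surfactant livers lay above all unventilated ones. PTX3, a secreted pattern-recognition protein, rose from 0.987 ± 0.137 to 548 ± 576 CPM in liver and had 3.84 ± 0.456 and 6.401 ± 5.18 CPM in PVWM, a difference of 8.38 ± 1.02 (adjusted p 5.75e-06).

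Of the 8 largest negative differences, 3 belonged to tubulins or a tubulin kinase. TUBB4A, a beta-tubulin best known from oligodendrocytes and neurons, had 388, 423, 463 and 272 CPM in unventilated liver and 46.2, 17.1, 29.6 and 7.70 CPM after ventilation, and 681, 719.8, 591 and 642 against 613, 728, 665 and 1002 CPM in PVWM. The liver fell by 3.94 on the log2 scale with no overlap, the PVWM groups overlapped, and the difference was -4.13 ± 0.56 (adjusted p 1.76e-05). The alpha-tubulin TUBA8 differed by -4.55 ± 0.62 (adjusted p 1.87e-05) and the tau kinase TTBK1 by -4.41 ± 0.43 (adjusted p 3.55e-07), each with a called fall in liver and PVWM means of 2.97 and 3.44 CPM for TUBA8 and 44.5 and 34.97 CPM for TTBK1. RGS4, ATP6V1C2, SLCO4A1, SPP1, PTX3 and these 3 genes kept the call of their difference under all 33 alternatives tried.

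Opposite directions, with a call in each tissue and in the difference, were found for 9 genes. This count was 4 to 27 without any 1 library, lowest without PVWM of lamb 058 (5 without 060 or 061), highest without liver of lamb 007 (15 without liver of 049), and it was 51 with DESeq2, 60 with limma voom and 2 with sex in the model. GFAP, PLA2G2C, DGKA, ACOT11, SLC22A18 and GPR35 fell in liver and rose in PVWM, and TRIB2, MYO10 and 1 locus without a name rose in liver and fell in PVWM. ACOT11, an enzyme that releases fatty acids from coenzyme A, had 2.42, 2.97, 1.62 and 2.78 CPM in unventilated and 1.48, 1.32, 1.07 and 1.47 CPM in surfactant liver. In PVWM it had 3.77, 2.88, 3.43 and 3.83 CPM and 6.08, 10.52, 11.9 and 9.56 CPM. The groups did not overlap in either tissue, and the difference was -2.33 ± 0.35 (adjusted p 5.53e-05), made of -0.88 ± 0.26 in liver and 1.45 ± 0.23 in PVWM. The liver fall of ACOT11 lost its call with limma voom (adjusted p 0.118). Its PVWM rise lost its call with sex (0.0737) or age (0.792) in the model. DGKA, which turns the second messenger diacylglycerol into phosphatidic acid, had 11.2, 14.4, 13.7 and 11.9 against 10.9, 8.31, 8.904 and 6.30 CPM in liver and 17.01, 11.4, 15.98 and 15.97 against 33.0, 27.6, 31.9 and 36.2 CPM in PVWM. Surfactant PVWM lay wholly above unventilated PVWM and surfactant liver wholly below unventilated liver, with a difference of -1.66 ± 0.22 (adjusted p 1.21e-05).

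GFAP encodes the intermediate filament of astrocytes and rises when they become reactive. In PVWM it had 839.8, 744, 695 and 717 CPM in unventilated and 2159, 1999.8, 1926 and 1958 CPM in surfactant lambs, with no overlap and a change of 1.42 ± 0.30 (adjusted p 0.0229). In liver, where its level was low at 1.46, 3.09, 0.295 and 2.48 and 0.369, 0.329, 0.921 and 0.560 CPM, the change was -1.76 ± 0.44 and the groups overlapped. The difference of -3.18 ± 0.53 (adjusted p 1.66e-04) stayed called under every alternative. The PVWM call on its own did not: its adjusted p was 0.0535 and 0.0544 without PVWM of surfactant lamb 049 or 051, and 0.0619, 0.0806, 0.109 and 0.106 without unventilated lamb 057, 058, 060 or 061. That call was also lost with the 16 libraries only (0.0971) and with sex (0.148) or age (0.777) in the model. The liver fall of GFAP was not called with limma voom (adjusted p 0.117). The other 14 astrocyte markers together had 3609, 4471, 3698 and 4143 CPM in unventilated and 4052, 3560.4, 4397 and 3608 CPM in surfactant PVWM, and these groups overlapped. PLA2G2C, a secreted phospholipase A2, differed by -3.47 ± 0.53 (adjusted p 7.44e-05, and 0.137 with age in the model). Its rise in PVWM lost its call without unventilated lamb 058, 060 or 061 (adjusted p 0.0808, 0.098 and 0.0827). That call was also lost with the 16 libraries only (0.107) or with sex in the model (0.0625).

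TRIB2, a pseudokinase that directs proteins to degradation, showed the reverse order. Its liver CPM were 63.1, 57.1, 101 and 81.4 without and 165, 151, 138 and 205 with ventilation, and its PVWM CPM were 81.9, 108, 93.8 and 86.2 and 43.2, 61.5, 48.3 and 30.3. Neither tissue overlapped, and the difference was 2.13 ± 0.29 (adjusted p 1.76e-05). Its fall in PVWM lost its own call without PVWM of surfactant lamb 049 or 051 or of unventilated lamb 058 or 060 (adjusted p 0.0535, 0.0815, 0.0799 and 0.0672). That call was also lost with the 16 libraries only (0.0693) or with sex in the model (0.0703). MYO10, a myosin that carries cargo along filopodia, fell by 1.29 on the log2 scale in PVWM, from 104 ± 13.8 to 42.7 ± 5.77 CPM. Its liver change of 0.54 ± 0.20 was not called with liver fitted alone (adjusted p 0.0797), nor without surfactant liver 032, 049 or 051 (0.086, 0.076 and 0.0769) or unventilated liver 057, 058 or 059 (0.0957, 0.108 and 0.0546). With sex in the model (0.0777) or limma voom (0.0932) it was not called either. The difference of 1.83 ± 0.28 (adjusted p 6.67e-05) kept its call in each of those fits. SLC22A18, an organic cation transporter, changed by -0.87 ± 0.20 in liver and 1.42 ± 0.33 in PVWM, and GPR35, an orphan G-protein-coupled receptor, by -1.24 ± 0.42 and 2.30 ± 0.43. The PVWM rise of SLC22A18 was called under 10 of 32 alternatives only: it was lost without any 1 PVWM library except that of lamb 032 (adjusted p up to 0.2), without liver of lamb 057, 058 or 060, with median-ratio factors (0.0509), limma voom (0.0556) or sex (0.131), and with PVWM fitted alone (0.0948). For GPR35 the PVWM call was lost without PVWM of lamb 058 or 060 (0.055 and 0.0687) and the liver call without liver of lamb 051 (0.077) or with limma voom (0.0532). With age in the model no gene with a called difference had called changes in opposite directions.

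Among the 23 genes with a called change in PVWM only, SLC14A1 had the largest difference. SLC14A1, a urea transporter, had 2.58, 6.06, 0.188 and 3.13 CPM in unventilated and 55.1, 44.0, 24.6 and 26.3 CPM in surfactant PVWM, and 12.9, 24.6, 4.43 and 13.43 and 6.80, 11.8, 7.22 and 13.37 CPM in liver. Every surfactant PVWM library lay above every unventilated one, the liver groups overlapped, and the difference was -4.15 ± 0.78 (adjusted p 5.34e-04, 0.011 with age). SEPP1, selenoprotein P, which carries selenium in plasma and supplies it to the brain, had 71.7, 99.9, 66.5 and 105 CPM against 198, 129.97, 225 and 391 CPM in PVWM. In liver, its main source, it had 1666, 1675, 2649.9 and 1971 and 2509, 1348, 1978 and 1181 CPM, which overlapped as the PVWM groups did not. The difference was -1.64 ± 0.40 (adjusted p 0.00399, 0.351 with age), and the rise in PVWM lost its own call without PVWM of surfactant lamb 051 or unventilated lamb 057 or 060 (adjusted p 0.0786, 0.0649 and 0.0881). PLA1A, a phospholipase of phosphatidylserine, differed by -2.09 ± 0.29 (adjusted p 2.18e-05) and AFF1, a scaffold of transcription elongation, by -1.46 ± 0.34 (adjusted p 0.00294), both with a rise in PVWM of 1.87 and 1.66 and no call in liver.

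GLI3 and SEMA3A were among the 5 genes with a called difference that fell in PVWM without a called change in liver. GLI3, the transcription factor that represses Hedgehog targets, had 26.2 ± 3.23 CPM in unventilated and 9.78 ± 3.71 CPM in surfactant PVWM, against 2.76 ± 0.105 and 3.03 ± 1.06 CPM in liver. Its difference was 1.55 ± 0.37 (adjusted p 0.00367). SEMA3A, a repulsive axon guidance cue, changed by -1.57 ± 0.34 in PVWM and by 0.71 ± 0.42 in liver, where its means were 0.636 and 1.06 CPM, a difference of 2.29 ± 0.54 (adjusted p 0.00331). With age in the model neither difference was called (adjusted p 0.113 for GLI3 and 0.425 for SEMA3A). The PVWM fall of SEMA3A lost its call without any 1 PVWM library except that of unventilated lamb 058, with an adjusted p of up to 0.15.

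**Figure D2:**
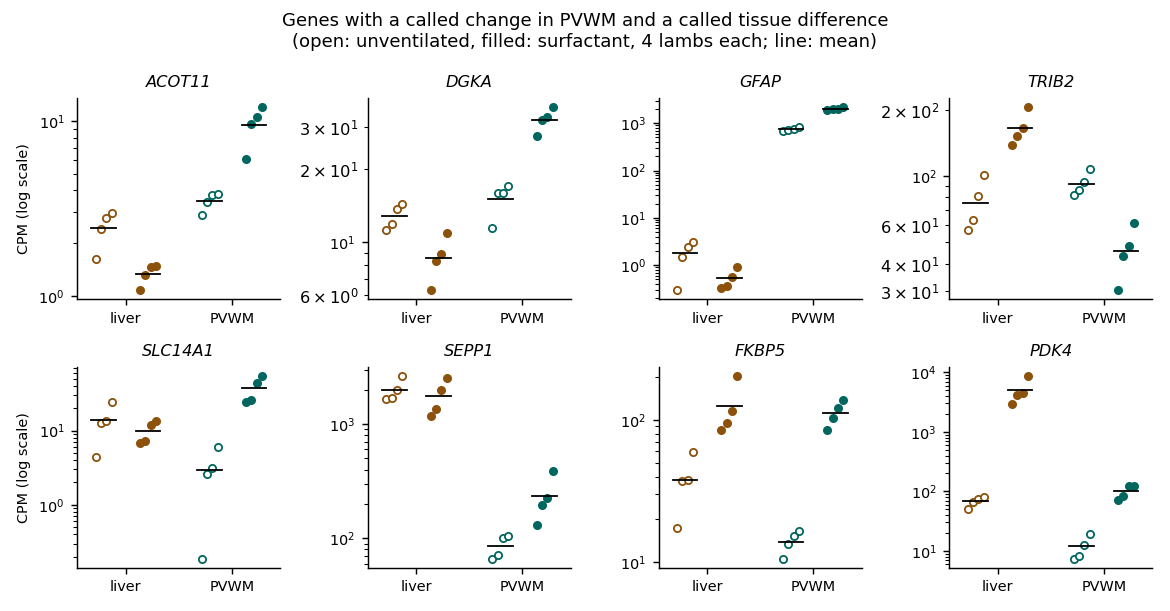
CPM per library on a logarithmic axis for 8 genes with a called change in PVWM and a called tissue difference, open circles for unventilated and filled circles for surfactant lambs, 4 per group, with the mean as a line. ACOT11 and DGKA step down in liver and up in PVWM, and TRIB2 does the reverse. GFAP steps up in PVWM, while its low liver values have a lower mean with ventilation but overlap between groups. SLC14A1 and SEPP1 move in PVWM only, and FKBP5 and PDK4 rise in both tissues by different amounts.

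Changes in both organs the same way but by different amounts were called for 17 genes. The count was 5, 6, 7, 8, 10 and 11 without PVWM of lamb 060, 061, 049, 057, 051 or 058, 10 and 11 without liver of lamb 057 or 058, 26 without liver of lamb 007, 35 with DESeq2, 3 with sex and 1 with age in the model. PDK4, the kinase that shuts pyruvate out of the citric acid cycle in fasting and under glucocorticoids, had 66.3, 51.4, 81.2 and 73.0 CPM in unventilated and 2918, 4122, 4560.2 and 8799 CPM in surfactant liver. In PVWM it had 19.2, 12.6, 7.38 and 8.17 and 82.6, 71.8, 123 and 125 CPM. Ventilated lambs lay far above unventilated ones in both tissues, by 6.23 ± 0.39 in liver and 3.09 ± 0.34 in PVWM, and the difference of 3.14 ± 0.45 was called under every alternative (adjusted p 3.70e-05). CEBPB, a transcription factor of the acute phase response, rose by 3.59 ± 0.34 in liver and 1.57 ± 0.36 in PVWM, a difference of 2.01 ± 0.48 (adjusted p 0.00347, 0.287 with age). Its PVWM rise was called under 14 of the 33 alternatives only and was lost without PVWM of lamb 049, 051, 057, 058, 060 or 061 or liver of lamb 057, 058 or 060 (adjusted p up to 0.197). MRO rose from 5.32 to 91.1 CPM in liver and from 4.33 to 13.1 CPM in PVWM, a difference of 2.50 ± 0.33 (adjusted p 1.55e-05).

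FKBP5, a co-chaperone that damps the glucocorticoid receptor and is itself a standard readout of glucocorticoid action, rose more in the brain. Its PVWM CPM were 13.38, 15.3, 10.6 and 16.4 without and 104, 85.1, 121 and 137 with ventilation, and its liver CPM were 37.0, 59.1, 17.5 and 38.1 and 116, 84.9, 95.4 and 205. Neither tissue overlapped between groups, the changes were 3.005 ± 0.29 and 1.72 ± 0.28, and the difference was -1.28 ± 0.38 (adjusted p 0.017). This call was lost with age (adjusted p 0.114) or sex (0.0519) in the model, and without both libraries of lamb 049, 058 or 060 (0.0604, 0.0511 and 0.058). The rises within each tissue were called under all 33 alternatives. PLAU, the urokinase plasminogen activator, changed by -1.20 in PVWM and by -0.40 in liver, a difference of 0.80 ± 0.21 (adjusted p 0.00809) that was not called with the animal as a replicate block (adjusted p 0.0584) or with age (0.196). Its fall in liver lost its call without liver of lamb 032, 049, 051, 057 or 058 (adjusted p 0.0913, 0.0731, 0.0561, 0.0849 and 0.0508).

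Both organs also shared changes for which no difference was called. This held for 39 genes, of which 33 rose and 6 fell in both. Without PVWM of lamb 060, 049, 061, 057, 058 or 051 the count was 13, 17, 21, 23, 24 and 25, and it was 98 with DESeq2, 81 with limma voom, 13 with the 16 libraries only, 10 with sex and 2 with age. A missing call does not show equal changes: the median width of the 95% interval of the difference was 2.02 log2 units, and only 8 of the 39 intervals lay within 1 log2 unit of 0. CXCL16, a membrane-bound chemokine and scavenger receptor, had 17.5, 19.4, 19.0 and 20.7 CPM and 58.0, 95.3, 282 and 208 CPM in liver and 3.20, 2.93, 3.62 and 3.46 CPM and 23.3, 28.8, 58.2 and 32.7 CPM in PVWM. It rose in both tissues without overlap, and the interval of its difference ran from -1.37 to 0.65. CD14, the endotoxin co-receptor, rose by 1.498 ± 0.34 in liver and 2.33 ± 0.37 in PVWM (interval of the difference -1.84 to 0.18). Without surfactant liver 051 its difference was called, with an adjusted p of 0.0214.

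SELP and ICAM1, which bring leukocytes to a halt on activated endothelium, were among the 39. SELP, the P-selectin that captures leukocytes on endothelium, had 0.430, 0.240, 0.329 and 0.514 CPM in unventilated and 1.23, 3.91, 47.3 and 13.7 CPM in surfactant PVWM, and 4.96, 3.898, 2.88 and 4.20 and 2.96, 7.24, 44.7 and 59.5 CPM in liver. Its change was 5.42 ± 0.99 in PVWM and 2.84 ± 0.81 in liver, and its difference of -2.58 ± 1.23 was not called (adjusted p 0.13) except with the animal as a block (adjusted p 0.00526) or without both libraries of lamb 007 (0.0438). The PVWM call of SELP was lost without PVWM of unventilated lamb 060 (0.0576). With sex in the model the PVWM calls of both SELP and ICAM1 were lost (adjusted p 0.321 and 0.267). ICAM1, the endothelial ligand of leukocyte integrins, rose by 3.06 ± 0.62 in liver and 3.53 ± 0.68 in PVWM (difference -0.48 ± 0.86, interval -2.25 to 1.30). Its PVWM values of 6.54, 3.72, 55.4 and 43.2 CPM in surfactant lambs differed widely among animals, lamb 049 being the highest, and the PVWM call was lost without lamb 049, 058 or 060 (adjusted p 0.0551, 0.0617 and 0.0687). Lamb 049 also had the highest sum of 21 endothelial markers in PVWM, 579 CPM against 310 to 371 CPM in the other surfactant lambs, and of 15 neutrophil and monocyte markers, 183 CPM against 83.0 to 101 CPM. The part of these cells in the result was not tested.

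SOCS3 and NFKBIA, inhibitors induced by the pathways they restrain, rose in both tissues. SOCS3, which blocks the interleukin-6 receptor complex, rose by 5.26 ± 0.61 in liver and 3.53 ± 0.68 in PVWM, where the 4 surfactant lambs had 0.681, 3.22, 15.7 and 7.04 CPM. Its difference of 1.74 ± 0.91 was not called (adjusted p 0.17), but was with the animal as a block (0.0171), without PVWM of lamb 049 (0.0236) or without both libraries of lamb 007 (0.0295) or 049 (0.0472). The PVWM rise of SOCS3 lost its call without PVWM of lamb 049, 058, 060 or 061 (0.0725, 0.0617, 0.0688 and 0.0592). NFKBIA, the inhibitor that holds NF-kB in the cytoplasm, rose by 3.06 ± 0.46 and 2.05 ± 0.45 (interval -0.27 to 2.27), and IL6ST, the shared signal-transducing receptor of the interleukin-6 family, by 0.99 ± 0.18 and 0.88 ± 0.18 (interval -0.41 to 0.62). Without any 1 PVWM library of lamb 049, 051, 057, 058, 060 or 061 the PVWM call of NFKBIA was lost (adjusted p 0.084 to 0.142), and that of IL6ST without PVWM of lamb 049, 057 or 060 (0.104, 0.0734 and 0.0664). KLF9, a transcription factor induced by cortisol, rose by 1.93 ± 0.29 in liver and 1.61 ± 0.29 in PVWM, with an interval of -0.50 to 1.16, and its PVWM call was lost without PVWM of lamb 060 (0.0576). IGFBP1, a carrier of insulin-like growth factors that rises in stress and fasting, rose by 3.13 ± 0.26 and 3.88 ± 0.67 (interval -2.13 to 0.62). ADAMTS1, a secreted metalloprotease, rose by 1.95 and 1.90 (interval -0.99 to 1.10), and TGM2, the tissue transglutaminase, by 3.13 and 2.61 (interval -0.81 to 1.85). The PVWM call of ADAMTS1 was lost without PVWM of lamb 049, 057, 060 or 061 (0.0725, 0.0582, 0.0687 and 0.0633) and that of TGM2 without 049 or 060 (0.0535 and 0.0654). PRKCDBP, a caveolar coat protein, fell in both, with a change of -1.17 in liver and -1.10 in PVWM and an interval of -0.59 to 0.45. With sex in the model each gene from SOCS3 to PRKCDBP lost its PVWM call. The adjusted p then ran from 0.0703 for PRKCDBP and 0.11 for IGFBP1 to 0.407 for SOCS3. With age in the model each of them lost it too, IGFBP1 at 0.562.

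**Figure D3:**
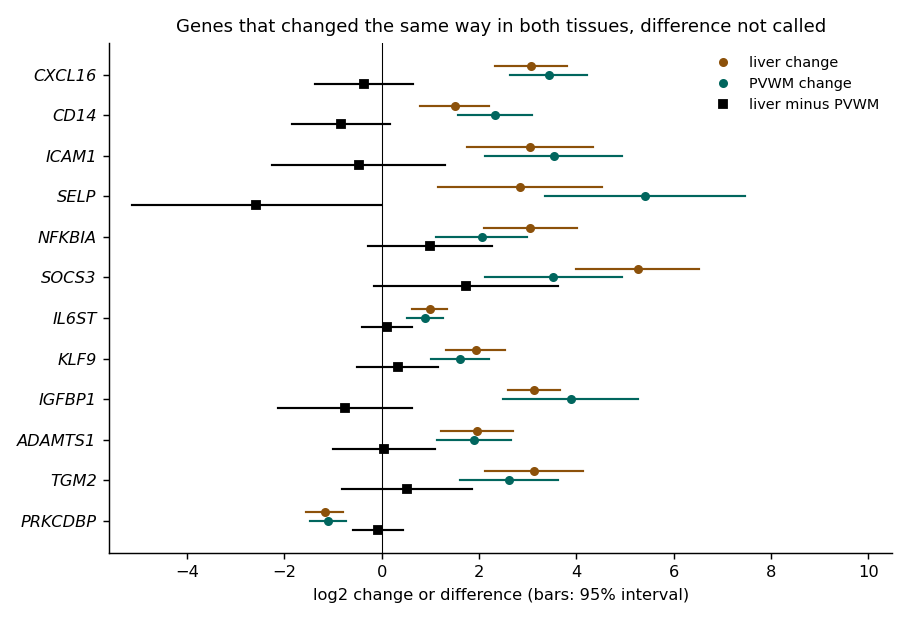
Log2 change in liver, log2 change in PVWM and their difference (liver minus PVWM), each with its 95% interval, for 12 genes that changed the same way in both tissues and had no called difference, 4 lambs per group. The intervals of the 2 changes lie on the same side of 0 for every gene, and the interval of the difference includes 0 for all but SELP, whose upper end is -0.02 before adjustment over all genes.

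Gene lists were compiled from general knowledge, but with earlier results of these data known. Their counts are therefore a description and not independent support. The lists were read one by one, as the number of members called in each direction beside the shares over all genes (14.6% higher and 11.2% lower). Their median difference is given beside 0.044. For changes within a tissue, 24.1% of all genes rose and 20.1% fell in liver. In PVWM 0.4% rose and 0.115% fell. With age in the model no member was called in the interferon-stimulated, heat shock, NRF2, p53, cell cycle, neutrophil, oligodendrocyte and neuron lists. Cytokine and NF-kB genes were mostly liver responders: 16 of 30 were called higher and none lower, with a median difference of 1.80. In the changes within each tissue, 27 rose in liver and 3 in PVWM, against 24.1% and 0.4% of all genes. The 30 genes summed to 574 to 656 CPM in unventilated liver and to 1615, 2864.5, 10005 and 11766 CPM in surfactant lambs 007, 032, 049 and 051, and in PVWM to 246 to 283 and to 281, 249.7, 608 and 427 CPM. Lambs 049 and 051 were the highest in both tissues, and lambs 007 and 032 lay at the unventilated level in PVWM. SOD2, the mitochondrial superoxide dismutase induced by NF-kB, had 94.7, 72.1, 67.4 and 99.4 and 390.4, 1074, 1534 and 2775 CPM in liver and 41.2, 52.6, 45.3 and 57.1 and 47.6, 47.0, 67.1 and 49.2 CPM in PVWM. Its liver groups were well separated, the PVWM groups overlapped, and the difference was 4.01 ± 0.50 (adjusted p 6.64e-06). BCL3, an NF-kB coactivator, differed by 3.21 ± 0.46 (adjusted p 3.58e-05). TNFAIP6, a hyaluronan-binding protein of inflamed tissue, differed by 6.50 ± 1.26 (adjusted p 7.03e-04, 0.143 with age) with PVWM means of 0.569 and 1.21 CPM. The count fell to 10 without liver of lamb 049, to 9 with limma voom, to 6 with sex and to 2 with age in the model.

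Some cytokines had so few counts in the brain that their difference was poorly resolved. IL6 itself had no counts in unventilated liver and 0.296, 0.987, 156 and 193 CPM in surfactant liver, at least 1817.8-fold higher on the means. It had 0.143, 0.144, 0.094 and 0 against 0.227, 0.0919, 1.29 and 0.373 CPM in PVWM, where 41 counts in all came from surfactant lambs. Lambs 049 and 051 held nearly all IL6 of the liver. Its tissue difference was not called by edgeR (adjusted p 0.142) but was by DESeq2 (adjusted p 7.01e-05) and with the animal as a block (adjusted p 0.0359). IL1B, the inflammasome-processed cytokine, rose in liver by 3.50 ± 0.73 and had a difference of 2.72 ± 1.01 that just missed the threshold (adjusted p 0.0508) and was called with DESeq2 (0.0383), with the animal as a block (0.0363), and without liver of lamb 007 (0.0123) or 032 (0.0178) or PVWM of lamb 049 (0.00546). CXCL8, the neutrophil attractant, had no counts in unventilated PVWM and 0.0908, 0, 6.42 and 2.85 CPM in surfactant PVWM, and 0.191, 0.186, 0.148 and 0.118 and 0.591, 2.14, 55.6 and 131 CPM in liver, with no difference called (adjusted p 0.877).

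Of 18 chemokines and their receptors, 3 were called higher and 2 lower (2 and 2 without liver of lamb 049, 051 or 060, 4 and 1 without PVWM of lamb 049, 1 and 0 with age). ACKR3, a scavenger receptor that removes CXCL12, differed by 5.45 ± 1.03 (adjusted p 5.31e-04) with liver means of 6.404 and 247 CPM, and CX3CL1, the ligand by which neurons address microglia, by -1.77 ± 0.38 (adjusted p 0.00164) with a fall in liver. With age in the model they had an adjusted p of 0.313 and 0.138. CXCL10, an interferon-induced chemokine, had the largest negative difference of this list: 0.681, 0.413, 40.2 and 12.4 CPM in surfactant PVWM against 0.860, 0.721, 1.08 and 0.980 CPM in unventilated PVWM, and 23.8, 26.7, 16.2 and 20.6 against 13.7, 4.52, 36.1 and 21.97 CPM in liver. Its difference of -4.06 ± 1.17 (adjusted p 0.0134) rested on lamb 049, without whose PVWM the adjusted p was 0.0722, and it was not called with limma voom (0.238), sex (0.264) or age (0.683). Neither tissue's own change was called, though the PVWM rise was under 8 of 33 alternatives, DESeq2 among them (0.00147). Across 40 interferon-stimulated genes only 2 were called higher and 2 lower (median difference -0.06), and these counts ran from 1 to 4 and from 0 to 4 without any 1 library, reaching 4 and 4 without liver of lamb 007. IFIT2 was the largest of them at 5.20 ± 1.00 (adjusted p 6.73e-04, 0.0526 with age). Within liver 6 of the 40 genes rose and 10 fell, against 24.1% and 20.1% of all genes. None of the 40 had a called change in PVWM.

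Cytokine receptors and STAT3 feedback genes, a list built around the interleukin-6 family that also holds receptors of other interleukins, were called higher more often than lower. Of 24 members 13 were called higher and 1 lower, with a median difference of 1.14, and the higher count was 11 to 15 whichever animal was left out and 7 with age. STAT3, the transcription factor that carries the interleukin-6 signal, had 79.8, 65.8, 60.9 and 68.0 CPM in unventilated and 407, 672, 834 and 927 CPM in surfactant liver. Its PVWM values were 36.6, 33.2, 36.3 and 35.7 and 36.9, 40.2, 53.3 and 35.2 CPM. The 4 ventilated livers lay above all others, the PVWM groups overlapped, and the difference was 3.15 ± 0.27 (adjusted p 7.32e-08). OSMR, the oncostatin M receptor of the interleukin-6 family, differed by 2.81 ± 0.41. Of the receptors outside that family IL4R (interleukin-4 receptor) differed by 2.48 ± 0.36 and IL1R1 (interleukin-1 receptor) by 2.92 ± 0.44, the 3 with adjusted p of 4.46e-05, 4.18e-05 and 6.18e-05. Among the feedback inhibitors SOCS1 differed by 5.28 ± 0.67 and SOCS2 by 2.18 ± 0.39 (adjusted p 8.81e-06 and 3.42e-04). The members were not tested against each other. IL11RA, the interleukin-11 receptor, was the member called lower (-1.25 ± 0.26, adjusted p 0.00122, 0.111 with age).

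Acute phase proteins are made by hepatocytes, and only 12 of the 26 tested had at least 1 CPM in both tissues. In liver 19 rose, against 24.1% of all genes, and 6 were called in the difference, all higher (5 to 8 without any 1 library). ITIH4, a plasma protease-inhibitor heavy chain, had 784, 648, 978 and 714 and 3699, 5883, 7677 and 7695 CPM in liver and 3.26 ± 0.441 and 3.05 ± 0.793 CPM in PVWM (difference 3.09 ± 0.33, adjusted p 1.12e-06). CP, the copper-carrying ferroxidase ceruloplasmin, had 56.6, 41.0, 19.3 and 50.9 and 2190.0, 4936, 2195 and 7907 CPM in liver, with every ventilated lamb above every unventilated one, and 0.973 ± 0.166 and 1.39 ± 0.464 CPM in PVWM (difference 6.16 ± 0.66, adjusted p 1.15e-06). CRP, C-reactive protein, rose in liver from 357 ± 28.4 to 5050.5 ± 2899.8 CPM. With no counts in unventilated PVWM its difference was not resolved (adjusted p 0.824). Of 24 genes of iron handling, a process under control of interleukin-6, 5 were called higher and 2 lower, CP among the former; the higher count was 4 to 7 without any 1 library, 3 without both libraries of lamb 057, and the lower count 1 to 3.

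Immediate early genes, which cells switch on within minutes of a stimulus, held the largest share of any list: 32 of 41 were called higher and none lower, with a median difference of 2.80 (2.66 with the 1 gene that has an empty group set at its bound). BTG2, an antiproliferative cofactor, had 229, 258, 192 and 138 and 2504, 3718, 3763 and 5336 CPM in liver and 18.3, 18.6, 17.6 and 14.4 and 13.5, 15.3, 29.1 and 20.0 CPM in PVWM. Ventilated livers were far above unventilated ones, the PVWM groups overlapped, and the difference was 4.05 ± 0.37 (adjusted p 2.20e-07). DUSP4, a phosphatase that ends MAP kinase signalling, rose in liver by 2.91 while PVWM had 13.2, 22.5, 11.6 and 12.5 and 7.44, 8.22, 8.26 and 4.25 CPM, a PVWM change of -1.09 ± 0.27 without a call, and its difference was 3.99 ± 0.39 (adjusted p 3.67e-07). The PVWM fall of DUSP4 was called with DESeq2 (adjusted p 0.0132), limma voom (0.0222) and PVWM fitted alone (0.0354). It was also called without liver of lamb 007 (0.0151). The AP-1 members JUNB and FOSL2 differed by 4.65 ± 0.74 and 4.09 ± 0.60, and the proto-oncogene MYC by 2.66 ± 0.42 (adjusted p 1.02e-04, 4.69e-05 and 9.55e-05). FOS, the classical marker of neuronal activity, had 23.4 ± 5.85 and 21.5 ± 15.5 CPM in PVWM and 12.5 ± 11.0 and 100.3 ± 89.8 CPM in liver. Its difference of 3.13 ± 0.93 (adjusted p 0.016) was not called without both libraries of lamb 051, 057 or 058 (0.0619, 0.0527 and 0.0608) or with age in the model (0.293). The list's count was 26 with limma voom, 27 to 35 without any 1 library and 8 with age in the model.

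Glucocorticoid-responsive genes were called in both directions. Of 35, 14 were called higher and 4 lower; without liver of lamb 007 the lower count was 7, and without both libraries of lamb 049, 058 or 060 or with sex in the model it was 2. With age in the model 4 were higher and none lower. Within PVWM 7 of the 35 rose and none fell, against 24 and 4 in liver. Over all genes 0.4% rose and 0.115% fell in PVWM, and 24.1% and 20.1% in liver. CRISPLD2, a secreted protein induced by dexamethasone in airway cells, differed by 3.33 ± 0.51 and MAOA, monoamine oxidase A, by 1.41 ± 0.26 (adjusted p 6.76e-05 and 4.51e-04). TSC22D3, the glucocorticoid-induced leucine zipper, had 153, 103, 74.7 and 82.5 and 139.6, 68.3, 53.7 and 51.7 CPM in liver and 98.4, 102, 99.99 and 90.4 and 126, 135, 139 and 183 CPM in PVWM. The PVWM groups did not overlap and the liver groups did. The difference of -0.97 ± 0.43 was not called (adjusted p 0.0981) but was without liver of lamb 007 (0.00552). PER1, a clock gene induced by cortisol, changed by 0.72 in liver and 0.69 in PVWM, and the interval of its difference was -0.62 to 0.66. The liver rise of PER1 lost its call without liver of lamb 007 (0.39, adjusted p 0.0931). That call was also lost without both libraries of lamb 007, 058 or 060 (0.103, 0.0515 and 0.0514), with liver fitted alone (0.0759) and with age (0.126). Its PVWM rise was called only with limma voom (0.0175) and PVWM fitted alone (0.00294). DUSP1, a phosphatase induced by glucocorticoids and by stress, differed by 1.56 ± 0.56 (adjusted p 0.0433), a call that 23 of 33 alternatives ended.

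**Figure D4:**
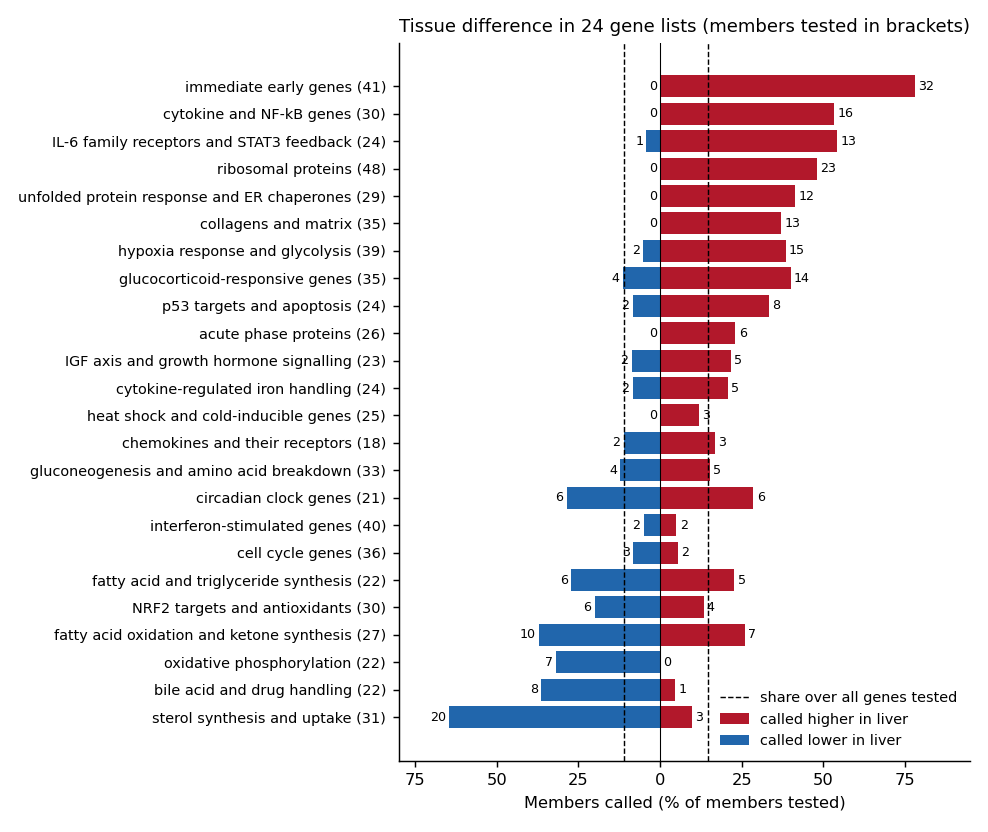
Share of members of 24 gene lists called higher in liver (red, to the right) or lower in liver (blue, to the left), with the number of members called at the end of each bar, the number tested in brackets and the shares over all 20010 genes (14.6% and 11.2%) as dashed lines. Immediate early genes reach 32 of 41 to the right and sterol genes 20 of 31 to the left, while interferon-stimulated and cell cycle genes lie inside both lines.

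Sterol synthesis and uptake was lower in liver relative to PVWM. Of 31 genes 20 were called lower and 3 higher, with a median difference of -1.13, and no member had a called change in PVWM. The lower count was 18 to 21 without any 1 library and 10 with age. HMGCS1, an early enzyme of the mevalonate pathway, had 279, 204, 208 and 224 CPM in unventilated and 41.8, 27.4, 79.1 and 30.2 CPM in surfactant liver. In PVWM it had 545, 665, 667 and 659 and 548, 722, 528 and 741 CPM. Liver groups did not overlap and PVWM groups did, with a difference of -2.36 ± 0.39 (adjusted p 1.45e-04). Along the pathway FDPS (farnesyl diphosphate synthase) differed by -1.48 ± 0.24, SQLE (squalene epoxidase) by -1.79 ± 0.48, NSDHL (sterol 4-demethylation) by -1.84 ± 0.18 and DHCR7, which makes cholesterol in the last step, by -2.43 ± 0.30. Their adjusted p were 1.44e-04, 0.00796, 3.67e-07 and 5.74e-06. Against the list ran ABCA1, which exports cholesterol to lipoproteins: 113, 90.1, 108 and 131 against 615, 946, 1073 and 1146 CPM in liver and 57.8, 65.8, 58.5 and 62.6 against 62.5, 50.9, 72.5 and 59.3 CPM in PVWM, a difference of 3.10 ± 0.29 (adjusted p 2.23e-07). PMVK, phosphomevalonate kinase, was also higher in liver (3.17 ± 0.33, adjusted p 7.61e-07), while ABCG8, the sterol exporter into bile, was lower (-2.69 ± 0.48, adjusted p 3.49e-04).

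Lipid storage and oxidation genes split within their lists. In fatty acid and triglyceride synthesis 5 of 22 were higher and 6 lower. DGAT2, which completes triglycerides, had 195, 156, 163 and 174 and 31.3, 15.9, 11.7 and 10.2 CPM in liver and 26.7 ± 1.93 and 23.4 ± 4.70 CPM in PVWM. The liver groups were widely separated, with a difference of -3.13 ± 0.36 (adjusted p 3.14e-06). GPAM, which starts glycerolipid synthesis, differed by -3.47 ± 0.43, while the phosphatidate phosphatases LPIN1 and LPIN2 went the other way by 3.50 ± 0.65 and 1.24 ± 0.19 (adjusted p 7.41e-06, 4.50e-04 and 5.72e-05). In fatty acid oxidation and ketone synthesis 7 of 27 were higher and 10 lower, the latter 6 without PVWM of lamb 051, 058 or 060, and 2 each with age. CPT2, the inner carnitine palmitoyltransferase, and EHHADH, a peroxisomal oxidation enzyme, were lower (-2.11 ± 0.26 and -2.55 ± 0.31, adjusted p 6.83e-06 and 6.18e-06). Among 22 genes of bile acid and drug handling 8 were lower and 1 higher, and the 8 were 5 without PVWM of lamb 061 or both libraries of lamb 049 and none with age. The lower ones included ABCC2, the canalicular exporter of conjugated bilirubin (-3.10 ± 0.52, adjusted p 1.89e-04, 0.169 with age), and the higher one was POR, the reductase that feeds electrons to cytochromes P450 (1.21 ± 0.19, adjusted p 1.13e-04). Only 10 of these 22 genes had 1 CPM in both tissues.

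Gluconeogenesis and amino acid breakdown gave 5 higher and 4 lower of 33. PC, pyruvate carboxylase, had 165, 100.05, 127 and 146 and 588, 1280.5, 1264 and 1463 CPM in liver, lamb 007 being the lowest of the ventilated, and 42.7, 33.8, 32.0 and 41.0 and 34.2, 33.6, 34.2 and 40.2 CPM in PVWM. Its difference was 3.16 ± 0.31 (adjusted p 4.17e-07). SDS, the serine dehydratase that feeds pyruvate, differed by 6.56 ± 0.65 (adjusted p 4.31e-07), with liver means of 6.74 ± 2.94 and 809 ± 702 CPM. FAH, the last enzyme of tyrosine breakdown, was lower (-1.07 ± 0.20, adjusted p 4.20e-04). PCK1, the enzyme that controls gluconeogenesis, rose in liver by 4.67 ± 0.40, but PVWM held so few counts that its difference of 3.52 ± 3.51 was not called (adjusted p 0.504).

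Genes of the hypoxia response and glycolysis rose in liver in 24 of 39 cases, against 24.1% of all genes. In the difference 15 were called higher and 2 lower, and none had a called change in PVWM; with sex in the model 9 were higher, with age 3 and without liver of lamb 007 20. PFKFB3, which makes the activator of phosphofructokinase, had 4.84, 6.25, 5.24 and 7.16 and 29.0, 104, 286 and 123 CPM in liver and 42.4, 32.5, 36.3 and 38.7 and 30.4, 25.04, 27.1 and 24.7 CPM in PVWM. Groups did not overlap in either tissue, the liver values lying higher and the PVWM values slightly lower with ventilation, a PVWM change of -0.48 ± 0.35 without a call (difference 5.01 ± 0.53, adjusted p 1.06e-06). With PVWM fitted alone this fall of PFKFB3 was called (-0.47, adjusted p 0.0272). PFKL, the liver phosphofructokinase, differed by 2.08 ± 0.29 and LDHA, lactate dehydrogenase A, by 2.67 ± 0.39 (adjusted p 2.80e-05 and 4.54e-05, the latter 0.0788 with age). CA9, a carbonic anhydrase used as a marker of hypoxia, was lower in liver (-2.47 ± 0.39, adjusted p 8.92e-05). Of 22 genes of oxidative phosphorylation 7 were lower and none higher, among them NDUFS1 of complex I (-1.01 ± 0.16) and SDHC of complex II (-1.18 ± 0.15; adjusted p 9.11e-05 and 1.08e-05). Without both libraries of lamb 032 or 051 the 7 were 4 and 3, and they were 4 with the animal as a block, 3 with sex and 2 with age.

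The unfolded protein response, by which secretory cells adjust their folding capacity, was called higher in 12 of 29 genes and lower in none. Of the 29, 16 rose in liver and none in PVWM, against 24.1% and 0.4% of all genes. With age in the model 3 were higher. ERN1, the endoplasmic reticulum sensor IRE1, had 159.9, 119, 156 and 136 and 1014, 1358, 1072 and 1369 CPM in liver and 17.6, 11.9, 15.6 and 15.6 and 14.4, 15.1, 16.9 and 17.1 CPM in PVWM. The liver groups were widely separated and the PVWM groups overlapped, with a difference of 3.01 ± 0.21 (adjusted p 2.98e-09). Its target XBP1 differed by 2.14 ± 0.31 and CHAC1, which degrades glutathione under stress, by 2.64 ± 0.47 (adjusted p 4.18e-05 and 3.21e-04). Heat shock and cold-inducible genes gave 3 of 25 higher and none lower, 9 higher without liver of lamb 007 and 5 without PVWM of lamb 057 or liver of lamb 032 or 059. HSPA1A, an inducible HSP70, had 52.0, 218, 363 and 52.2 and 21.9, 354, 974 and 203 CPM in liver and 82.3, 157, 72.2 and 68.4 and 47.4, 248, 248 and 133 CPM in PVWM, overlapping in both, and a difference of 0.35 ± 1.17 (adjusted p 0.881). CIRBP, the cold-inducible RNA-binding protein, differed by -0.37 ± 0.28 (adjusted p 0.363). Of 30 NRF2 targets and antioxidants 4 were higher and 6 lower, the latter 11 with scaling within each tissue and 4 without PVWM of lamb 051, 058 or 061 or liver of lamb 058.

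**Figure D5:**
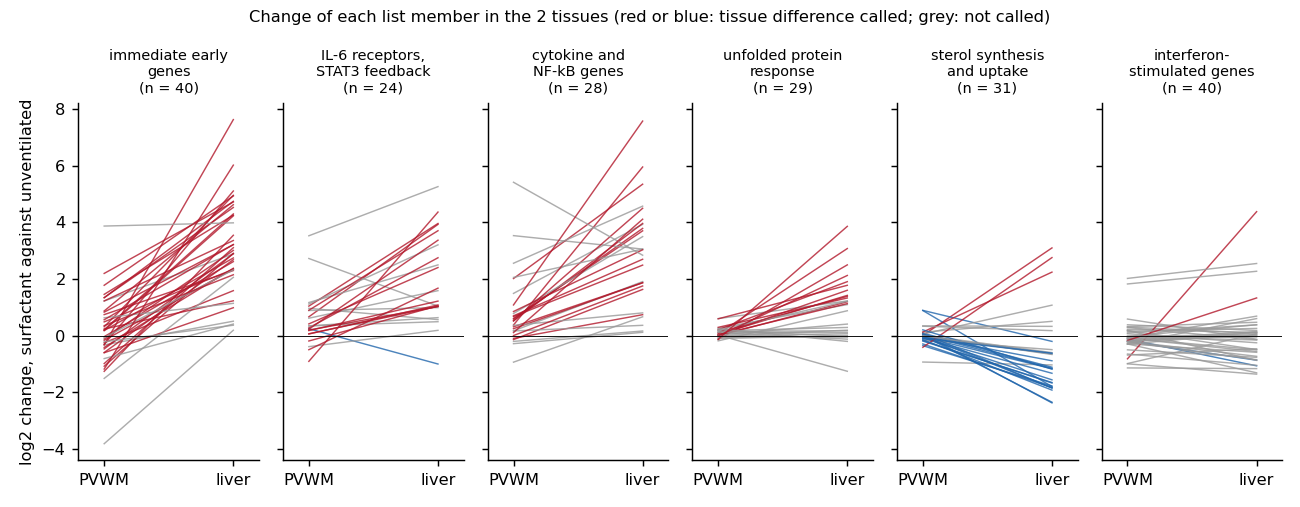
Log2 change from unventilated to surfactant lambs of each member of 6 gene lists in PVWM (left end of each line) and liver (right end), red or blue where the tissue difference was called and grey where it was not; members with an empty group are left out. The red lines of immediate early, interleukin-6 receptor, cytokine and unfolded protein genes climb from PVWM to liver, and most sterol genes descend. Most lines of interferon-stimulated genes are grey, with IFIT2 the steepest of the red ones.

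Of 24 p53 targets and apoptosis genes 8 were higher, a count of 8 or 9 without any 1 library, and 2 lower, a count of 0 without PVWM of lamb 007 or 061 or liver of lamb 057 and of 1 without any other 1 library except liver of lamb 007, 058 or 059. The survival factors MCL1 and BCL2 differed by 1.76 ± 0.28 and 1.84 ± 0.33 (adjusted p 1.05e-04 and 3.31e-04, 0.0612 and 0.07 with age). Ribosomal protein genes were higher in 23 of 48 and lower in none, with a modest median of 0.60; the 23 were 34 without liver of lamb 007, 13 without PVWM of lamb 032 12 with the animal as a block and 1 with age. Reads of these genes may be shared with pseudogenes, so single members such as RPL12 (2.30 ± 0.37, adjusted p 1.23e-04) are uncertain. Circadian clock genes gave 6 higher and 6 lower of 21, the latter 3 without both libraries of lamb 032, 051 or 060, and 1 each with age. Among them were NFIL3 (3.85 ± 0.53), a repressor, and TEF (-1.97 ± 0.27), an activator of the same kind of promoter element (adjusted p 2.12e-05 and 2.36e-05). Of 23 genes of the insulin-like growth factor axis 5 were higher, a count of 2 without liver of lamb 049 or both libraries of lamb 032 or 060 and of 3 without PVWM of lamb 007, 032, 051, 057, 060 or 061 or liver of lamb 058 or 060, of 3 with the animal as a block and of 1 with sex or age, and 2 lower; IRS2, an insulin receptor substrate, differed by 2.49 ± 0.27 (adjusted p 1.82e-06). Among 36 cell cycle genes 2 were higher and 3 lower, 1 and 1 without PVWM of lamb 007, 051 or 058 or liver of lamb 049, 051 or 057.

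Collagen and matrix genes were higher in 13 of 35 and lower in none (8 higher with limma voom, 1 with age). COL4A2, a chain of basement membrane collagen, had 88.4, 76.7, 82.4 and 96.4 and 183, 255, 298 and 335 CPM in liver and 125, 110.0, 112 and 116 and 133, 99.3, 135 and 93.7 CPM in PVWM, a difference of 1.65 ± 0.22 (adjusted p 2.00e-05). Endothelial markers were higher in 9 of 21, though in 4 of 21 without PVWM of lamb 032, 051 or 058 or liver of lamb 049, 058 or 059, in 5 without PVWM of 057 or 061 or liver of 060, and in 2 without both libraries of 058; with sex in the model the count was 3 and with age 2. Their sum in liver was 1039 to 1212 CPM in unventilated and 1663 to 2098 CPM in surfactant lambs, and in PVWM 350.1 to 409.5 and 310 to 579 CPM. ANGPT2, which destabilises vessels, differed by 3.14 ± 0.40 (adjusted p 9.66e-06), and CLDN5, the tight junction protein of the blood-brain barrier, by 0.36 ± 0.54 (adjusted p 0.687). Neutrophil and monocyte markers summed to 230.4 to 335 CPM in unventilated and 442 to 1048 CPM in surfactant liver. There 11 of 15 rose, against 24.1% of all genes. In PVWM they summed to 92.4 to 114 and 83.0 to 183 CPM, and 2 of the 15 were called in the difference. None of the 15 was at 0 in liver of either group. The part of entering leukocytes in the cytokine results was not tested.

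Not every neural marker list was higher in PVWM: the 15 astrocyte markers summed to 6008 to 6928 CPM in unventilated liver and to 4392 to 5215 CPM in unventilated PVWM, and the 4 choroid plexus markers to 2374 to 3875 and 9.32 to 121 CPM. Of 16 oligodendrocyte markers none was higher and 4 were lower, 2 without PVWM of lamb 051, with the animal as a block or with limma voom. MBP, myelin basic protein, had 617, 562, 191 and 555 CPM in unventilated and 560.3, 707, 224 and 4029 CPM in surfactant PVWM. Lamb 051 stood far above all others, the groups overlapped, and the difference was not called (-1.25 ± 0.88, adjusted p 0.32). PDGFRA, the growth factor receptor of oligodendrocyte precursors and of mesenchymal cells, had 198, 165, 167 and 194 and 205, 148, 155 and 142 CPM in PVWM and 42.6, 44.8, 69.2 and 52.1 and 159, 277, 243 and 271 CPM in liver. Its difference of 2.34 ± 0.29 (adjusted p 5.77e-06) was called while PVWM groups overlapped. Of 15 astrocyte markers 3 were higher and 3 lower, GFAP and NDRG2 (-1.61 ± 0.23, adjusted p 3.45e-05) among the latter. Of 19 resident macrophage and microglia markers 2 were higher and 1 lower (4 higher without PVWM of lamb 049, 3 and 2 lower without liver of lamb 007 or 049). SALL1, a factor of microglial identity, was one of the former (2.51 ± 0.34, adjusted p 1.81e-05). Its fall in PVWM was not called in the joint fit but was with PVWM fitted alone (-0.86, adjusted p 0.000676). No member of 17 hepatocyte, 12 fetal erythroid or 4 choroid plexus markers was called, and 12 of the 17 hepatocyte markers had under 1 CPM in PVWM. Mesenchymal, bile duct, precursor, ependymal and neuron lists had 2 of 14, 2 of 9, 2 of 9, 3 of 12 and 4 of 16 members higher and 0, 0, 0, 0 and 1 lower. In liver 14 of the 16 neuron markers had under 1 CPM without and 13 with ventilation. The neuron sum in liver was 37.2 to 129 CPM in unventilated and 21.1 to 43.5 CPM in surfactant lambs, so it did not rise with the 4 members called higher. Of the 12 ependymal markers 6 and 5 had under 1 CPM in liver. The bile duct count was 4 without liver of lamb 007 and 1 without PVWM of lamb 032, 051 or 061 or liver of lamb 049, 059 or 060, and the neuron count was 1 without liver of lamb 049 and 2 without liver of lamb 051, 057, 059 or 060. With the animal as a block no neuron marker was called in either direction, and 1 ependymal and 1 bile duct marker were called higher.

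Of 1767 genes with at least 1 CPM in liver only, 8.32% were higher and 4.81% lower, and of 2676 with 1 CPM in PVWM only, 7.17% and 3.14%. FST, follistatin, an activin antagonist, had 13.9, 20.6, 15.1 and 32.8 and 142, 308, 308 and 300.4 CPM in liver and under 1 CPM in PVWM (difference 4.60 ± 0.55, adjusted p 4.23e-06). BTLA, an inhibitory receptor of lymphocytes, fell in liver from 17.6 ± 10.6 to 1.06 ± 0.468 CPM (-6.30 ± 1.04, adjusted p 1.51e-04). The peroxisomal coenzyme A hydrolase NUDT7 (-4.63 ± 0.43) and syndecan-1, SDC1 (-3.37 ± 0.45), were lower as well (adjusted p 2.23e-07 and 1.46e-05). Among genes with a mean of at least 1 CPM in PVWM only were SALL3, a transcription factor, and CNIH2, a subunit of AMPA-type glutamate receptor complexes, which had 1.55 and 1.58 CPM in surfactant liver against 0.0148 and 0.0344 CPM in unventilated liver, while PVWM had 47.0 and 41.5 CPM of SALL3 and 207 and 195 CPM of CNIH2. Their differences were 6.25 ± 0.68 and 5.43 ± 0.72 (adjusted p 1.62e-06 and 1.62e-05), and that of the sodium-leak channel subunit FAM155A was 2.94 ± 0.30 (adjusted p 6.12e-07).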

How the data were processed

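RNA was measured by poly-A selected, paired-end sequencing of Trizol extracts. The authors deposited 1 table of raw counts per gene for each tissue, not normalized; the submitters' processing notes name Bowtie2, featureCounts and edgeR, while versions, settings and genome build are not given in the sources used here. Columns were assigned to lambs by the animal number in the labels. The tables were joined by gene symbol, and 23 symbols that a spreadsheet had turned into dates, spelled differently in each table, were left out (0.0919 to 0.282% of counts). The analysis kept the 20010 genes that passed filterByExpr over the 6 groups of tissue and treatment.

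All 24 libraries were fitted together with edgeR 4.0.16 in R 4.3.3 (TMM scaling, robust quasi-likelihood, 1 dispersion per gene for both tissues), and the tissue difference was tested as a contrast, two-sided, with Benjamini-Hochberg adjustment over all genes and a threshold of 0.05. Changes within a tissue come from the same fit. Fold changes of groups with no counts depend on the prior count, and bounds were computed with 3 counts over the group. Scripts were tested on simulated data. Alternatives were TMM within tissues, median-ratio factors, other filters, DESeq2 1.42.0, limma 3.58.1 voom, 16 libraries only, age, sex (dropping PVWM of lamb 061, and taking the sex of lamb 060 from its PVWM label), the animal as a block, leaving out each library or both libraries of an animal, and, added after seeing the data, each tissue fitted alone.

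The same animal number marks the same lamb in both tissues. Over 11 such pairs the deviations from the group means correlated at 0.0794 to 0.198 (median 0.123, 6 over 0.1), against a median of -0.008 between different lambs.

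The members and gene lists were chosen with earlier results of these data known. Named genes follow a rule: (a) the 8 largest differences each way among genes of at least 1 CPM in both tissues, (b) up to 6 each way with opposite called changes, (c) up to 4 each way changed the same way, (d) up to 4 each way measurable in 1 tissue, (e) up to 3 called members per list by p, (f) up to 6 each way shared without a called difference and with a narrow interval, and (g) CRP, IL6, SOCS3, CXCL8, FKBP5, TSC22D3, PER1, PDK4, PCK1, DUSP1, FOS, HSPA1A, CIRBP, LDHA, MBP, GFAP, CLDN5 and 1 more that is not reported here. Fewer are named than it gives. ABCG8, ADAMTS1, AFF1, CA9, CD14, CHAC1, CRISPLD2, CXCL16, DHCR7, FAH, FDPS, FOSL2, GLI3, GPR35, HMGCS1, ICAM1, IGFBP1, IL11RA, IL1B, IL1R1, IL4R, IL6ST, JUNB, KLF9, LPIN1, MAOA, MYC, NFKBIA, OSMR, PLA1A, SELP, SEMA3A, SEPP1, SLC22A18, SOCS2, SQLE and TGM2 were chosen after their values were seen.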

Additional observations from a re-analysis of the deposited data

Results flagged for a closer look

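A difference between tissues under the same contrast was tested for every gene and called for 5170 genes, which is the subject of the report. In addition, single libraries stood far from the other 3 of their group in 31 of 496 groups of 4 examined over the named genes, by a Dixon test on log2 CPM at the 95% level. Chance flags about 1 in 20 groups.

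In surfactant liver, lamb 007 was the lowest for FST (142 CPM against 300.4 to 308), PC (588 against 1264 to 1463) and MYO10 (34.6 against 60.7 to 63.6). Lamb 049 was the highest there for the sterol genes SQLE (35.003 against 9.59 to 11.5 CPM) and FDPS (6.14 against 4.34 to 4.44). Lamb 051 was the lowest for SDC1 (1.68 against 3.84 to 4.07 CPM) and TUBA8 (0.0700 against 0.691 to 0.887), and lamb 032 the highest for FAM155A (1.97 against 1.26 to 1.33).

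In surfactant PVWM, lamb 049 was the highest for SPP1 (89.9 against 18.007 to 22.1 CPM) and SOD2 (67.1 against 47.0 to 49.2) and the lowest for DGAT2 (16.4 against 25.4 to 26.4). Lamb 051 was the lowest for ECEL1 (1.03 against 10.53 to 11.9 CPM), DUSP4 (4.25 against 7.44 to 8.26), MYO10 (34.1 against 44.5 to 46.4) and SALL3 (37.2 against 42.4 to 43.5), and the highest for MRO (16.7 against 11.8 to 12.1) and PC (40.2 against 33.6 to 34.2). Lamb 007 was the lowest for RGS4 (24.1 against 47.2 to 50.7 CPM) and the highest for CNIH2 (243 against 177 to 181).

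In unventilated liver, lamb 058 was the lowest for MAOA (4.89 against 7.89 to 8.52 CPM) and SOCS2 (35.4 against 47.7 to 50.6), lamb 059 the highest for CD14 (62.1 against 34.6 to 37.1), lamb 057 the highest for NFKBIA (34.2 against 28.9 to 29.5), and lamb 060 the highest for OSMR (56.8 against 46.7 to 47.8) and, with 0.0592 CPM against 0, for SALL3. In unventilated PVWM, lamb 058 was the highest for ADAMTS1 (11.1 against 8.23 to 8.59 CPM) and the lowest for DGKA (11.4 against 15.97 to 17.01). Lamb 057 was the lowest for HMGCS1 (545 against 659 to 667 CPM) and the highest for TTBK1 (50.2 against 42.4 to 42.9). Lamb 060 was the lowest for MBP (191 against 555 to 617 CPM), and lamb 061 the only one with any count of PCK1 (0.0467 CPM).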

How the results depend on the processing

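The number of genes with a called tissue difference was 3627 to 6002 under the alternatives in scaling, filter, tool, samples and sex, and 3755 with the replicate block for the animal, which kept 3524 of the 5170 genes (68.2%). With gestational age in the model 664 genes were called, 429 higher and 235 lower, and the changes within liver and PVWM fell to 3249 and 4 genes. The changes within PVWM numbered 312 with DESeq2, 425 with limma voom, 46 with the 16 libraries only, 29 with sex and 376 with each tissue fitted alone. Leaving out 1 library, or both of a lamb, gave 3927 to 6650 called differences, 2305 to 3584 of them higher and 1622 to 3066 lower, with 7719 to 9707 called changes in liver and 35 to 192 in PVWM. The last count was 58, 63, 64, 64, 37 and 53 without PVWM of lamb 049, 051, 057, 058, 060 or 061, and 158 without liver of lamb 007. Of the 101 genes named with a called difference, 79 kept it under every alternative and 22 lost it under at least 1, all 22 of them with age, 3 with sex and 2 with the block (PLAU and ECEL1). Of 23 named genes without a call, 7 gained it under at least 1. No called difference of a gene chosen by the rule turned sign, while 11 of all 5170 did with age and 1 each without liver of lamb 058 or 060 or without both libraries of either. The block changed no other call of a named gene than those printed beside it. The causes of these changes were not tested. Genes under 1 CPM in a tissue limit what can be resolved: 62 of the called genes had a group without any count.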

Other observations

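The 4 surfactant lambs took the same order on the first principal component of each tissue, computed separately. In liver they lay at 9.45, 67.9, 100 and 113 for lambs 007, 032, 049 and 051, and in PVWM, where the component held 28.3% of the variance, at -12.3, 15.4, 37.3 and 54.5. Unventilated lambs lay at -76.7 to -67.3 in liver and at -37.4 to -7.30 in PVWM, so that lamb 007 fell among them in PVWM only. Immediate early genes summed to 5684, 9380, 19662 and 16685 CPM in surfactant liver and to 755, 813, 1209 and 847 CPM in surfactant PVWM, lambs 049 and 007 being the highest and the lowest in both. With 4 lambs, a relation between the tissues was not tested.

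The 9 oligodendrocyte precursor markers summed to 62.8 to 103 CPM in unventilated and 196 to 465 CPM in surfactant liver, and the 16 oligodendrocyte markers to 582 to 729 and 211 to 374 CPM. Most of the precursor sum in every liver library was PDGFRA, which is also a gene of mesenchymal cells. In each liver group 5 of the 9 precursor markers had under 1 CPM. NKX2-2 had no counts in either liver group and OLIG2 none in unventilated liver. In PVWM the precursor sum was 1182 to 1469 CPM without and 911 to 1282 CPM with ventilation, and the groups overlapped. Fetal erythroid markers, 12 genes, summed to 615 to 3892 CPM in unventilated and 1029 to 2609 CPM in surfactant liver.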
